A study of Homo sapiens with 4 samples.

Results

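The strongest TEAD4 binding sites held in common by 2 human gastric cancer cell lines, MKN28 and SNU216, are described here. They were chosen by the score that the authors' peak caller, MACS, gave to each peak. A site is an SNU216 peak with a score of at least 300 that shares at least 1 bp with an MKN28 peak of score at least 400. The rule took 705 of the 11540 SNU216 peaks (6.11%) and 703 of the 39477 MKN28 peaks (1.78%) as their partners, on build hg19. Each line gave 1 chromatin immunoprecipitation (ChIP-seq) library made with an Abnova antibody against TEAD4 and 1 input library made without antibody. Both lines were cross-linked with formaldehyde, and the labels name no treatment, time or genetic change in either. With 1 library per line nothing has a replicate check, no test between the lines was possible, and intervals cover counting error only. The peak lists hold no read counts, so the depth is unknown.

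TEAD4 belongs to the TEAD family of transcription factors, which bind DNA but activate transcription mainly through the co-activators YAP and TAZ. The Hippo kinase pathway keeps YAP and TAZ out of the nucleus, and when it is inactive they join TEAD proteins at enhancers and promoters of genes for growth, adhesion and the cytoskeleton. Known targets in epithelial cells include CYR61 and CTGF, which code for secreted matrix proteins, and AMOTL2, which codes for an angiomotin family protein that holds YAP back.

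The score thresholds took a like part of each list. In SNU216, 1181 peaks scored at least 300 (10.2% of the list), and in MKN28, 4253 peaks scored at least 400 (10.8%). Of the 1181 strong SNU216 peaks, 705 (59.7%) had a strong MKN28 partner, 371 had a weaker MKN28 partner and 105 had no MKN28 peak. Seen from MKN28, 703 of the 4253 strong peaks (16.5%) were partners, 1385 overlapped only SNU216 peaks below 300, and 2165 overlapped none. These shares follow from the rule. The sites closest to the SNU216 threshold scored 300 (9p13.3) and 300.35 (1q21.3), and the nearest peaks left out scored 299.98 (2q33.3) and 299.19 (1p36.21). At the MKN28 threshold, the lowest partner kept scored 400.23 (14q32.33) and the highest one left out scored 399.77 (3p21.31). The boundary was thus drawn through a continuous range of scores, with no gap on either side.

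The common sites spanned a wide range of strength in each line. In SNU216 their scores ran from 300 to 3117, with a median of 502 (quartiles 377 and 721). In MKN28 the partners ran from 400.23 to 3170, with a median of 925 (633 and 1325). A score of at least 1000 was given to 68 sites in SNU216, to 310 in MKN28 and to 52 in both. In MKN28, 13 sites scored 3100 or more: 7 were tied at exactly 3100 and are not ordered among themselves, and 6 had larger values, up to 3170. Of the 7, the 2 in 3q22.2 share the same MKN28 peak. The scale of the score is not stated, so it is not known whether 3100 is a capped value. No order of strength is therefore read between the 7 and the 6. Only 22 sites were among the 100 highest-scoring peaks of both lists, and 156 were among the 500 highest of both. Across the 705 sites, the 2 scores had a Spearman rho of 0.38, a description of sites that share their 2 libraries and were all cut at both thresholds.

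**Figure D1:**
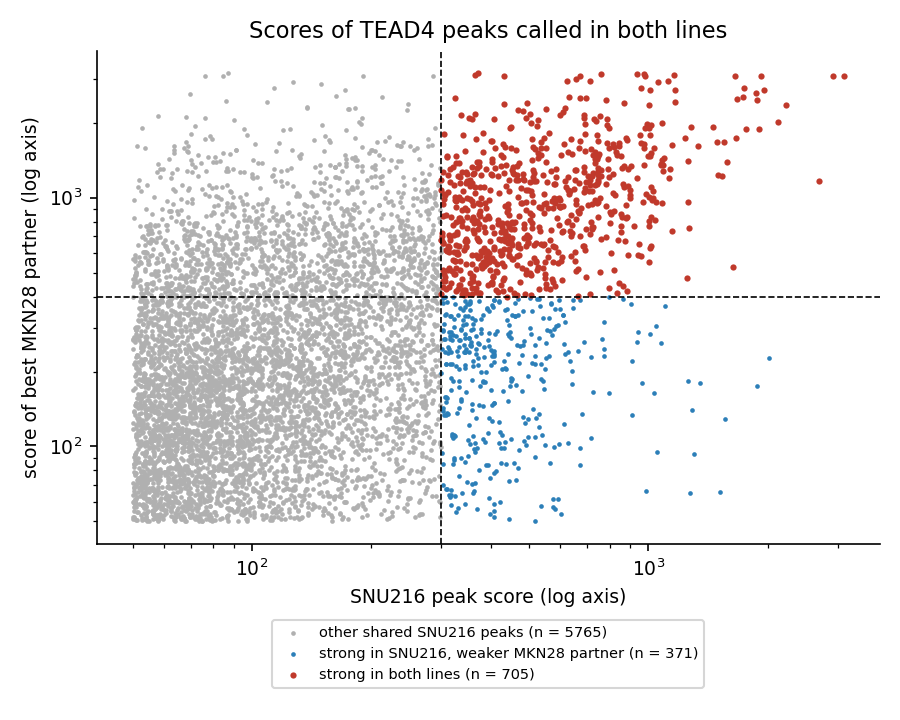
Scores of SNU216 peaks (horizontal, log axis) against the score of the best MKN28 partner (vertical, log axis) for all SNU216 peaks called in both lines. Red points are the 705 common strong sites, blue points the 371 strong SNU216 peaks with a weaker partner, grey points the other 5765 shared peaks, and dashed lines the thresholds of 300 and 400. The red points fill the upper right corner without a gap to the others.

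The 15 sites that ranked best in both lists, by the worse of their 2 ranks, lay on 9 chromosomes. The highest SNU216 score of all, 3117, was in 3q22.2 (chromosome 3, 134045581 to 134046205), and its MKN28 partner (134045465 to 134047455) scored 3100. That band carries AMOTL2. In 1p36.13 (chromosome 1, 19378722 to 19379500) the scores were 2928 in SNU216 and 3100 in MKN28. These were the 2 sites that ranked first and second in SNU216 and were also among those tied at 3100 in MKN28. In 1p22.3, the band of CYR61, a site at 86072491 to 86073419 of chromosome 1 scored 1928 in SNU216 and 3100 in MKN28. A site in 14q23.2 (chromosome 14, 62221702 to 62222566) scored 1658 and 3100. Band names are given with a known gene as background only: no gene positions on hg19 were used, and no peak was assigned to a gene.

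Chromosome 7 held 3 of the 15. The site in 7p12.3 (46184846 to 46185580) scored 1740 in SNU216 and 2758 in MKN28, in the band of IGFBP3, which codes for a binding protein of insulin-like growth factors. The site in 7q31.2 (115994625 to 115995621) scored 1868 and 2627, in the band of the caveolin gene CAV1 and the receptor kinase gene MET. The site in 7p11.2 (55034752 to 55035625) scored 1730 and 2553, in the band of EGFR, the gene of the epidermal growth factor receptor. The last of the 3 had the lowest score of them in both lines.

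Chromosomes 11 and 22 held 2 each. In 11q13.3, where the gene of cyclin D1 (CCND1) is found, a site at 69235267 to 69235774 scored 1960 in SNU216 and 2706 in MKN28. A site in 11q13.2 (67780570 to 67781140) scored 1169 and 2427. On chromosome 22, a site in 22q12.2 (30602735 to 30603499) scored 1671 and 2489, and one in 22q11.21 (19868543 to 19869227) scored 1168 and 2722. The other 4 were in 21q22.2, 9q31.3, 13q34 and 3q29, with SNU216 scores of 1160, 1878, 1123 and 2229 and MKN28 scores of 3124, 2465, 2954 and 2368. The band 13q34 carries COL4A1 and COL4A2, which code for collagen chains of the basement membrane. Of the 15 peaks, 12 lay wholly inside the MKN28 peak, and 14 were wider in MKN28 than in SNU216.

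The lines placed the common sites at nearly the same point. The midpoints of partner peaks were a median of 58 bp apart (95% interval of the median 51 to 61, quartiles 25 and 99), which is 7.30% of the MKN28 peak width. They were within 50 bp at 322 sites (45.7%, exact 95% Clopper-Pearson interval 41.95 to 49.4) and within 200 bp at 653 sites (92.6%, 90.4 to 94.4). The SNU216 midpoint was on the side of higher coordinates at 348 sites, of lower coordinates at 353, and equal at 4. This closeness was not particular to the strong common sites. The median distance was 52 bp (46 to 60) for the 371 strong SNU216 peaks with a weaker partner and 55 bp (53 to 57) for the other 5765 shared peaks, and these intervals overlap.

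**Figure D2:**
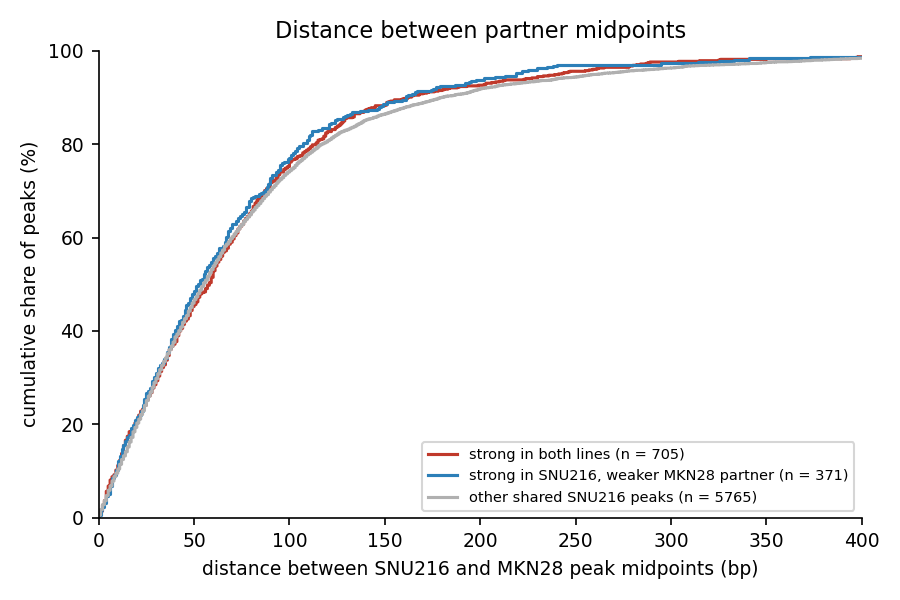
Cumulative share of SNU216 peaks (vertical, %) by the distance between their midpoint and that of the best MKN28 partner (horizontal, bp, drawn to 400 bp). The red line is the 705 common strong sites, the blue line the 371 strong SNU216 peaks with a weaker partner and the grey line the other 5765 shared peaks. The 3 lines run close together, with medians of 58, 52 and 55 bp.

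Most SNU216 peaks sat inside their MKN28 partner. This held for 431 of the 705 sites (61.1%, 57.4 to 64.8), against 111 of the 371 peaks with a weaker partner (29.9%, 25.3 to 34.9) and 60.4% (59.1 to 61.7) of the other shared peaks. A lower share was fixed in advance for peaks with a weaker partner, since they were chosen by a low MKN28 score and width rises with score, so it is a description only. The MKN28 peak was the wider one at 594 common sites (84.3%), with a median width ratio of 1.27, whereas this ratio was 0.99 for peaks with a weaker partner and 1.43 for the other shared peaks. Only 2 common sites shared less than 50% of the SNU216 peak with the partner. At 4 sites the SNU216 peak overlapped more than 1 MKN28 peak of any score.

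A single MKN28 peak overlapped 2 neighbouring SNU216 sites in 2 places, both on chromosome 3. In 3q22.2, SNU216 peaks at 134044888 to 134045577 (score 433) and at 134045581 to 134046205 (score 3117) both overlapped the MKN28 peak of 1991 bp at 134045465 to 134047455. The weaker of the 2 shared only 113 bp (16.4% of its width) with it, lay mostly outside it and gave the largest midpoint distance of all sites, 1227 bp. In 3q21.2, SNU216 peaks at 124597251 to 124597821 (score 402) and 124597838 to 124598552 (score 457) met the MKN28 peak at 124597310 to 124598558 (score 1251). These 2 SNU216 peaks were 659 bp apart by midpoint.

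Set against like-scored peaks, a group that includes them, the common sites were near the middle in width. The median width was 611 bp in SNU216 (quartiles 519 and 722, range 264 to 2046) and 793 bp in MKN28 (664 and 949, range 383 to 3044). Width rises with score, so the width of each peak was set against the median of like-scored peaks of its own list, as a quotient. Its median over the sites was 0.997 (0.971 to 1.02) in SNU216 and 1.001 (0.982 to 1.02) in MKN28, where 1 is the level of all peaks. The like-scored peaks include the sites themselves, so this median is held near 1 in part by construction. The sites are 59.7% of SNU216 peaks scoring at least 300, and their partners 16.5% of MKN28 peaks scoring at least 400. The median quotient was 1.02 (0.978 to 1.05) for strong SNU216 peaks with a weaker partner. For those with no MKN28 peak it was 0.984 (0.932 to 1.03). The quotients of a site in the 2 lines had a Spearman rho of 0.45 over 705 sites, so a site wide for its score in one list tended to be wide in the other. This is a description, since both lists share the genome sequence and its mappability. A width of at least 1 kb was found at 33 sites in SNU216, at 143 in MKN28 and at 27 in both. In 8q24, 23 sites were 1.34 times as wide as like-scored peaks in SNU216 and 1.39 times in MKN28 by their medians. This band was not among the regions set in advance to be named. No widths are given for its other peaks, so the value is not read as a trait of the common sites.

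MKN28 scores exceeded SNU216 scores at most common sites. The ratio of the MKN28 to the SNU216 score had a median of 1.67 (quartiles 1.26 and 2.45) and was over 1 at 618 of the 705 sites (87.7%). Scores rise with sequencing depth, and the thresholds differ between the lines, so this level describes the 2 libraries. The ratio was over 3 at 111 sites and under 1 at 87. The 87 include the 3q22.2 site with 3117 in SNU216 and the tied value of 3100 in MKN28. If 3100 is a capped value, the ratios of sites tied there would be too low. An MKN28 excess was not particular to the common sites. For the other 5765 shared peaks, all below 300 in SNU216, the median ratio was 1.92. Their ratio was over 1 at 78.3% and over 3 at 1807 peaks. The 371 strong SNU216 peaks with a weaker partner, chosen by a low MKN28 score, had a median of 0.476. The highest ratio of the common sites, 8.51, was in 8q24.21 (chromosome 8, 128822268 to 128822934). There SNU216 scored 373 and MKN28 scored 3170, the highest value of its list. In 14q11.2 (chromosome 14, 20107851 to 20108365) the scores were 365 and 3105, also a ratio of 8.51. The next were in 8q24.22 (325 and 2514), in 3q22.2 (433 and 3100, the narrow edge overlap described above) and in 1q32.1 (337 and 2145).

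At the other end, 5 sites were the most SNU216-weighted. In 2p25.2 (chromosome 2, 5768364 to 5768995) SNU216 scored 1638, its 19th highest value, and MKN28 scored 526, a ratio of 0.32. In 10q24.2 (chromosome 10, 99334297 to 99334898) the scores were 1249 and 474. In 20q13.33 (chromosome 20, 60936178 to 60937760) SNU216 scored 2686, the third highest of its list, and MKN28 scored 1163. That SNU216 peak was 1583 bp wide, 2.37 times the width of peaks of like score, and its partner was 582 bp wide. The sites in 8p21.2 (881 and 422) and 3q28 (835 and 413) completed the 5. Sites common to both lines thus differed in relative score from 0.32 to 8.51.

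The ratio varied by chromosome within this range. Among the 21 chromosomes with at least 10 common sites, its median ran from 1.48 on chromosome 10 to 2.55 on chromosome 12. All 17 sites of chromosome 12 had the higher score in MKN28, as did the 23 of chromosome 17 and the 11 of chromosome 13. On chromosome 3, SNU216 had the higher score at 9 of 48 sites. The quartiles of chromosome 12 (1.93 and 3.60) did not overlap those of chromosome 10 (1.24 and 1.81). The cause of these differences was not tested.

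**Figure D3:**
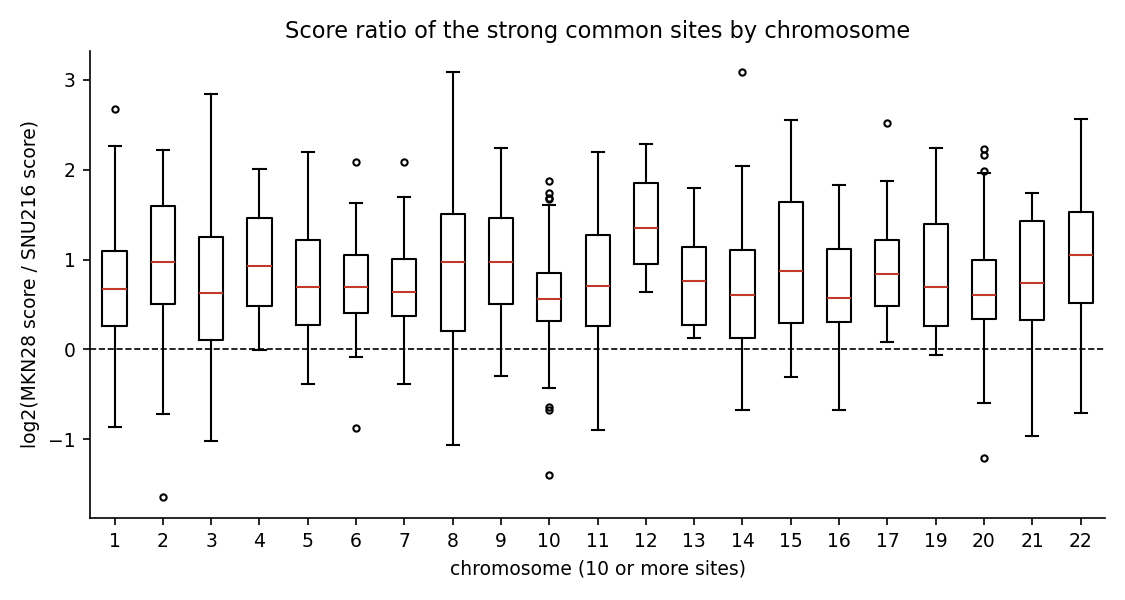
Log2 of the MKN28 score over the SNU216 score (vertical) for the common strong sites of each chromosome with at least 10 of them (horizontal). Boxes span the quartiles with the median in red, whiskers reach 1.5 times that range, circles are sites beyond it, and the dashed line marks equal scores. All 21 medians lie above the line, with that of chromosome 12 the highest.

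The common sites were found on 23 chromosomes, chromosomes 1 to 22 and X. Chromosome 1 held 86 of them (12.2% of the sites, 9.87 to 14.8), against 9.35% of all SNU216 peaks. Chromosome 22 held 18 (2.55%, 1.52 to 4.01) against 1.45%, and chromosome 19 held 32 (4.54%, 3.13 to 6.35) against 2.90%. Chromosome X held 3 (0.426%, 0.0878 to 1.24) against 1.31%. In the other 19, the interval held the share of all SNU216 peaks. The value for chromosome 19 rested on 1 window: without 43 to 44 Mb it was 3.30% (2.11 to 4.92) against 2.68%. These intervals take sites as independent, which neighbours are not, and are not adjusted for 23 chromosomes.

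Strong SNU216 peaks gave a second view of the chromosomes. The share that was also strong in MKN28 was 59.7% over the genome, and the interval held that value on 21 of the 23 chromosomes. It was 81.8% on chromosome 22 (18 of 22 peaks, 59.7 to 94.8) and 47.2% on chromosome 6 (34 of 72, 35.3 to 59.3), both of which miss the overall share by a narrow margin. Per length, chromosome 20 had the most common sites, 6.19 per 10 Mb, followed by chromosome 19 with 5.41. Chromosome 13 had 0.955 and chromosome X had 0.193, the fewest among the chromosomes with a site. These counts per length also vary with the number of SNU216 peaks. Common sites were 7.47% (5.37 to 10.1) of the SNU216 peaks of chromosome 20 and 6.15% (3.11 to 10.7) of those of chromosome 13. Both intervals hold the 6.11% of all SNU216 peaks. The share was 9.55% on chromosome 19 (lower limit 6.63) and 1.99% on chromosome X (upper limit 5.70), and these intervals miss it.

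**Figure D4:**
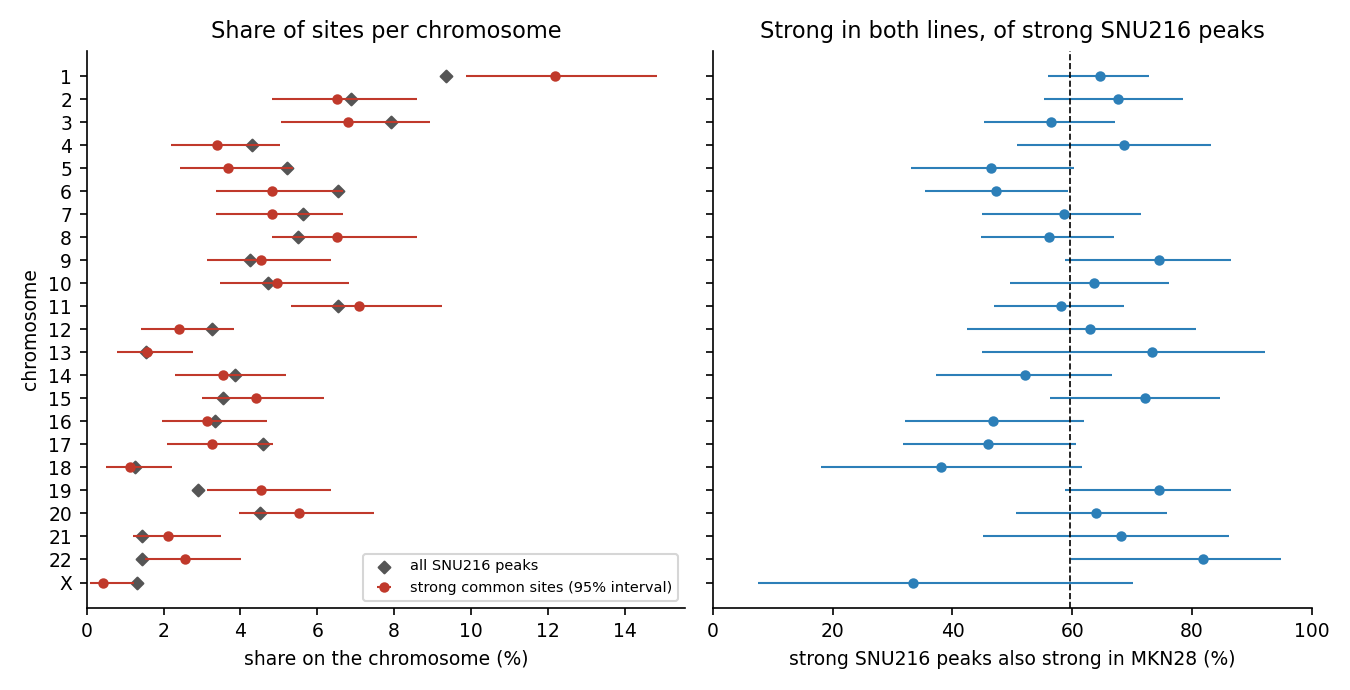
Left, share of the 705 common strong sites on each chromosome (red, with exact 95% intervals) and of all SNU216 peaks (grey diamonds), in %. Right, share of the strong SNU216 peaks of each chromosome that were also strong in MKN28 (blue, exact 95% intervals), with the overall 59.7% as a dashed line. The red intervals of chromosomes 1, 19 and 22 lie above the diamond and that of X below it.

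By cytogenetic band, the common sites lay in light bands about as often as other strong SNU216 peaks. Giemsa-negative bands, which are known to be rich in genes and in GC bases, make up 42.2% of hg19 and held 412 of the 705 sites (58.4%, 54.7 to 62.1). All SNU216 peaks had 53.8% (52.9 to 54.7) in such bands, strong SNU216 peaks with a weaker partner 57.4% (52.2 to 62.5) and those with no MKN28 peak 61.0% (50.9 to 70.3). The darkest bands make up 16.1% of hg19 and held 44 sites (6.24%, 4.57 to 8.29), against 8.48% of all SNU216 peaks. The 3 intervals of strong SNU216 peaks overlap, so no difference between sites shared and not shared with strong MKN28 peaks was detectable. Near centromeres and chromosome ends, within 1 Mb, lay 22 sites (3.12%, 1.97 to 4.69), against 4.14% of all SNU216 peaks.

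Common sites usually had other TEAD4 peaks around them. A second SNU216 peak of any score lay within 50 kb of 538 sites (76.3%, 73.0 to 79.4), against 60.5% (59.6 to 61.4) of all SNU216 peaks. The share was 75.7% (71.0 to 80.0) for strong peaks with a weaker partner and 74.3% (64.8 to 82.3) for those with no MKN28 peak. In MKN28, 91.2% (88.8 to 93.2) of the partners had another MKN28 peak within 50 kb, against 90.9% (89.97 to 91.7) of all strong MKN28 peaks and 83.5% of all MKN28 peaks. Within 10 kb, the share was 63.2% (59.5 to 66.7) for the partners and 58.5% (57.0 to 60.0) for all strong MKN28 peaks, a set that includes them. Company of other peaks thus went with strength in either list, and for SNU216 not detectably with sharing between lines.

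The common sites themselves were mostly far apart, with a median distance of 1502 kb between neighbours. Chaining sites less than 100 kb apart left 527 on their own and gathered 178 (25.2%) into 74 runs, 18 of them with 3 sites or more. Counted in fixed windows of 1 Mb, 510 windows held a site and 17 held 4 or more. The 3 fullest windows were on chromosomes 19, 20 and 11, with 9, 8 and 6 sites. They held 26, 25 and 26 SNU216 peaks of any score, against 3.73 per Mb over the genome. Spans of windows and runs are given between the midpoints of the first and last site.

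The fullest window, chromosome 19 from 43 to 44 Mb, spans the border of 19q13.2 and 19q13.31. Its 9 sites were spread over 433 kb, at steps of 18.9 to 104 kb. SNU216 scores were between 322 and 750 and MKN28 scores between 432 and 1500. The strongest was at 43402759 to 43403354, with 750 in SNU216 and 1500 in MKN28. The MKN28 peaks were wide, at 1.66 times the width of like-scored peaks by the median, against 1.07 times in SNU216. The window held 26 SNU216 and 39 MKN28 peaks in all. These bands carry the tandem family of pregnancy-specific glycoprotein (PSG) genes, of which RefSeq lists 10 as protein-coding on chromosome 19. The copies are close to identical in sequence, so reads from one can be placed on another. How the authors placed such reads is not given in the sources used here, and their part in these 9 sites was not tested.

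In 20q13.13 (chromosome 20, 49 to 50 Mb) the 8 sites lay within 342 kb. The 2 strongest in SNU216 scored 1498 (49377861 to 49378895, MKN28 1233) and 1240 (49157253 to 49158086, MKN28 1736). The weakest in SNU216 scored 327 (49065211 to 49065685), where MKN28 scored 1469. SNU216 had the higher score at 3 of the 8, the sites at 49292250 (757 against 502), 49345358 (574 against 553) and 49377861. Median widths against like score were 1.04 in SNU216 and 0.941 in MKN28. The window held 25 SNU216 and 60 MKN28 peaks in all. The band carries CEBPB, SNAI1 and PTPN1, which code for 2 transcription factors and a tyrosine phosphatase.

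In 11q13.3 (chromosome 11, 69 to 70 Mb) the 6 sites spread over 400 kb. Besides the peak at 69235267 named above, they scored 786, 545, 484, 745 and 975 in SNU216, in order along the chromosome, and 1953, 652, 2229, 1695 and 1578 in MKN28. All 6 had the higher score in MKN28. The site with the largest contrast, at 69251600 to 69252350, lay 16.5 kb from the strongest and scored 484 against 2229. The window held 26 SNU216 and 51 MKN28 peaks in all.

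**Figure D5:**
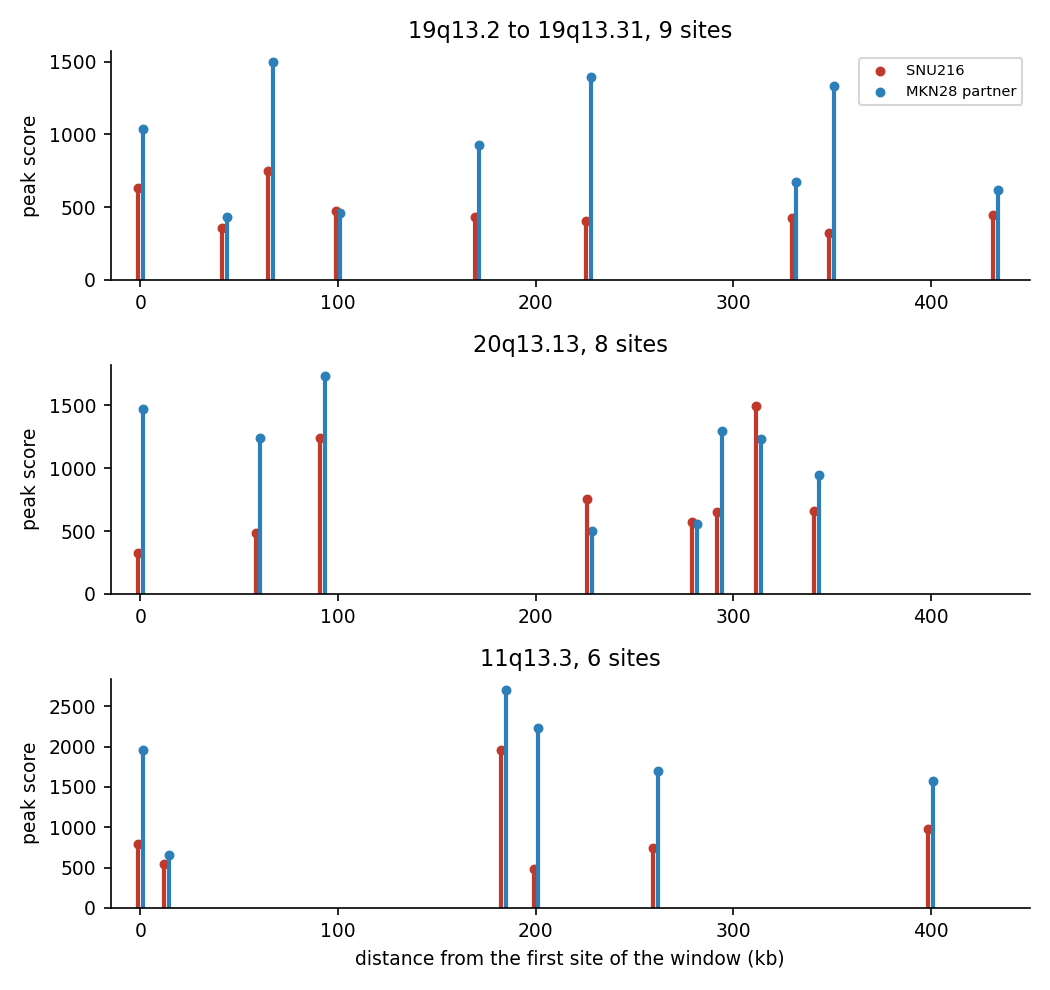
Scores (vertical) of the common sites in the 3 windows of 1 Mb that held most of them, against distance from the first site of the window (horizontal, kb). Red stems are SNU216 peaks and blue stems their MKN28 partners, drawn side by side. The 20q13.13 window has 3 sites where the red stem is higher, and the 11q13.3 window has none.

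Other compact runs were found. In 3q22.2, 5 sites between 134044888 and 134146678 had midpoints spread over 101 kb. Besides the 2 adjoining peaks described above, they scored 417 (134070989), 1552 (134093005) and 887 (134146045) in SNU216, and 1225, 1682 and 587 in MKN28. In 3q21.2, 4 sites within 105 kb scored 402 to 938 in SNU216 and 1251 to 3157 in MKN28. In 21q22.3, 4 sites within 143 kb scored 446 to 1028 and 618 to 1730. In 8q22.3, 4 sites within 167 kb scored 363 to 1269 and 754 to 1987.

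The tightest run of 4 was in 1q42.13 (chromosome 1, 228745696 to 228766463), with midpoints spread over 20.2 kb. Its sites scored 371, 459, 342 and 391 in SNU216 and 574, 415, 408 and 605 in MKN28. Their SNU216 widths came in equal pairs, 604, 551, 551 and 604 bp. This band carries the tandem array of 5S ribosomal RNA genes, near-identical copies for which the same limit on read placement holds as on chromosome 19, and its part was not tested.

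The bands of known YAP and TEAD targets were looked at as a group. The list holds 22 genes, and 19 of them with a single well-known band were used. Of these 19 bands, 17 (89.5%) held a common site, against 363 of the 862 bands of hg19 (42.1%). The bands are longer than most, with a median of 4 Mb against 3.3 Mb. They had 0.741 sites per Mb against 0.228 over the genome, a ratio that partly goes with their higher density of SNU216 peaks in general (6.52 against 3.73 per Mb). The genome figures also count chromosome Y (59.4 Mb, no common site) and centromeric, variable and stalk bands (104.9, 128.6 and 23.2 Mb), which hold no band of the list. Of the SNU216 peaks in the target bands, 11.4% (63 of 554) were common strong sites, against 6.11% of all. Of the strong SNU216 peaks there, 70.8% (63 of 89) were also strong in MKN28, against 59.7%. The genome shares include the target bands, and no intervals are given for the shares of these bands. The list was chosen with earlier results of these data known and was not tested, and a band holds many genes beside the target.

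Among genes of matrix proteins, the band of CYR61 held 4 common sites among 24 SNU216 peaks and that of CTGF 1 among 16. The other CYR61 band sites, at 85794495, 85961064 and 87691717, scored 497, 360 and 452 in SNU216 and 1070, 589 and 800 in MKN28, all below the 1928 and 3100 of the strongest. The CTGF band site, in 6q23.2 (chromosome 6, 132272413 to 132272867), scored 814 in SNU216 and 1650 in MKN28. The band of TGFB2, the gene of a transforming growth factor, held 5 sites among 47 SNU216 peaks (1q41), and that of IGFBP3 held 5 among 43.

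Among regulators of the pathway itself, the band of AMOTL2 held 6 sites in 2 Mb, the highest density of the 19 bands. It was also dense in peaks, with 30 SNU216 peaks in 2 Mb, against 3.73 per Mb over the genome. Common sites were 20% of them, a lower share than in the bands of MYOF (35.7%) and ANKRD1 (21.1%). The band of LATS2, the gene of a Hippo kinase that phosphorylates YAP, held 1 site (13q12.11, chromosome 13, 21635572 to 21636017), with scores of 977 and 1652. It was the only strong SNU216 peak among 9 in that band. The band of NUAK2, the gene of a kinase, held 6 sites among 58 SNU216 peaks (1q32.1).

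The remaining target bands ranged from 0 to 6 sites. The band of ANKRD1, the gene of a nuclear ankyrin repeat protein, held 4 among 19 SNU216 peaks (10q23.31). The 2 strongest of these sites were at 92680876 to 92681472 (995 in SNU216, 1466 in MKN28) and 92690761 to 92691490 (746 and 1236). The band of MYOF, the myoferlin gene, held 5 common sites among only 14 SNU216 peaks (10q23.33), 4 of them within 177 kb. The band of F3, the tissue factor gene, held 5 among 33 SNU216 peaks (1p21.3). The strongest site, at 95111544 to 95112306, scored 1091 and 1282. The band of the receptor kinase gene AXL held 6 among 50 SNU216 peaks (19q13.2). Of the 6 sites, 2 belong to the chromosome 19 run above. The strongest site of the band, at 41729204 to 41729765, scored 1018 and 1106. In the bands of ARHGEF17 (11q13.4), GADD45A (1p31.3) and RBMS3 (3p24.1), common sites were 5 of 42, 4 of 43 and 2 of 20 SNU216 peaks. In those of DOCK5 (8p21.2), FJX1 (11p13) and CCDC80 (3q13.2) they were 1 of 13, 2 of 44 and 1 of 28. The shares for FJX1 (4.55%) and CCDC80 (3.57%) were below the 6.11% of all SNU216 peaks. No common site was found in the bands of FOXF2 (6p25.3) and NT5E (6q14.3), where SNU216 had 10 and 11 peaks of any score.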

How the data were processed

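TEAD4 ChIP-seq peaks of 1 MKN28 and 1 SNU216 library were analysed. Build hg19, CASAVA 1.8, MACS and Bowtie2 2.0.0 are listed in the submitters' processing notes, without settings. MACS version, read filters and treatment of reads with several placements: not given in the sources used here. Per library, the authors deposited 1 peak list, made with the matching input as control per the file names, with a score per peak whose scale is not stated (its range would fit a multiple of −log10 of a p-value). Such a score rises with depth.

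Positions were made 1-based on hg19. Overlap meant at least 1 bp, and a site's partner was the highest-scoring MKN28 peak. Widths were divided by the median of 50 groups by score rank. Bands came from circlize 0.4.16. Intervals given for shares are exact 95% Clopper-Pearson ones, and those given for medians are exact binomial ones. Tools were scipy 1.17.1, pandas 2.3.3, numpy 2.4.6 and Python 3.11.15, and the code was tested on simulated data.

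No hg19 genome or gene positions were used here, so planned motif and gene-start results were not run. Regions named were the 15 best by worse rank, the 5 highest and 5 lowest score ratios, those nearest the thresholds and the 3 fullest windows. Of the runs, those of 4 or more sites were named after their values were seen, and the bands of target genes are textbook positions added later. The sites and lists were chosen with earlier results of these data known.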

Additional observations from a re-analysis of the deposited data

How the results depend on the processing

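The number of common sites was 653 with a required overlap of 50% of each peak. It was 409 at thresholds of 400 and 600, 1314 at 200 and 250, and 337 for the 1000 highest-scoring peaks of each list, as these rules take fewer or more peaks by construction. With the last rule, 65.9% of the sites lay inside the MKN28 peak and the median score ratio was 2.15, and the cause was not tested. Another SNU216 peak was near 43.97% of the sites within 10 kb and 85.96% within 100 kb, distances added after seeing the data. Of 60 recomputed values, the other 53 stayed within the interval of the main value, or within 1.5 times it for the count of sites. They include midpoint distances and shares in Giemsa-negative bands under every alternative run. Widths against like score also stayed, but their reference peaks include the sites, which holds these values near 1 in part by construction. The alternatives without centromeres and chromosome ends, without band 8q24, and without chromosome 19 from 43 to 44 Mb were added after seeing the data. The motif and gene-start alternatives were not run. Single libraries left no replicate to leave out. No paired analysis was possible because there are no replicates. Unknown depth limits the comparison of scores between the lines.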
